A study of Rattus norvegicus with 2 samples.

Results

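Respiratory chain and ATP synthase genes of the nucleus were compared between 2 RNA-seq libraries of H9c2, an established line of embryonic rat heart myoblasts. The genes were chosen by name: every entry of the deposited tables whose Entrez identifier belongs to a rat protein-coding gene with a symbol beginning Nduf, Sdh (followed by a to d or af), Uqcr, Uqcc, Cox and a digit, or Atp5. Of 137 such genes in the RefSeq gene table, 77 were listed in the files, and 73 of them averaged 1 FPKM or more over both libraries, among 4366 genes measured at that level. FPKM scales a gene's fragment number by transcript length and library size. The other 60 genes were not analysed here, among them Ndufa9, Ndufa4l2, Cox7a1, Cox7a2, Atp5f1c and Atp5pb, and neither were the subunits encoded by mitochondrial DNA.

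The cells had been grown in DMEM with fetal bovine serum and then held in serum-free DMEM for 12 h, with 0.9 mM phosphate in the control culture and 2.5 mM in the high phosphate culture. With 1 library per phosphate level, replicate error is unknown, no test was possible, and every comparison is between these 2 libraries. The read depth behind the values is unknown. The sum of listed FPKM was 307622 for control and 346857 for high phosphate. In RNA from a whole culture, fewer cells of a type and less RNA per cell cannot be told apart. Desmin (Des), a muscle intermediate filament gene, was listed at 128.5 and 153.3 FPKM, whereas the myogenic factor Myod1 was at 6.11 and 1.59 FPKM and myogenin (Myog) at 0.13 and 0.06 FPKM. Cardiac factors such as Gata4 and Nkx2-5 were not analysed here. All 4 listed endothelial markers were at or under 0.22 FPKM. Of the macrophage markers, the leukocyte gene Ptprc was listed at 0 in both libraries and Csf1r at 0.00 and 0.09 FPKM. Lyz2 was at 0.15 and 0.13 FPKM and Cd68 at 1.06 and 1.38 FPKM. The fibroblast marker Pdgfra was listed at 0 in both libraries, and the 5 measured fibroblast markers summed to 3533 and 3583 FPKM. Most of that sum was S100a4, which was nearly level. Thy1, Col1a1, Dcn and Lum were higher in high phosphate, with log2 ratios of 0.45, 0.65, 0.66 and 0.78 on the FPKM + 1 scale described below. Thy1 was listed at 232 and 317 FPKM. The other 3 were low, with 0.79 and 1.80 (Col1a1), 5.11 and 8.63 (Dcn) and 3.63 and 6.97 FPKM (Lum). The part of these markers in the results was not tested.

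The respiratory chain moves electrons from NADH (complex I) and succinate (complex II) through complex III to oxygen at complex IV, and pumps protons across the inner mitochondrial membrane. Complex V, the ATP synthase, lets the protons flow back through a rotating c ring and makes ATP in its F1 head. Complexes I, III, IV and V join nuclear subunits to a few encoded by mitochondrial DNA, and dedicated assembly factors insert cofactors and join the parts. Heart muscle depends on this system for most of its ATP, and cells in low oxygen can shift from it toward glycolysis.

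Differences of the 73 measured genes between the libraries were small. The difference was log2((high phosphate FPKM + 1)/(control FPKM + 1)), and by that measure 0 members were at least 2-fold higher, against 1.76% of all measured genes, and 0 at least 2-fold lower, against 0.87%. The small differences lay mostly on one side: 55 members were higher in high phosphate by any amount, or 75.3%, against 50.5% of all measured genes, and 18 were lower, against 49.4%. At a 1.2-fold step, 14 members were higher (19.2%, against 21.4% of all measured genes) and 3 were lower (4.11%, against 16.4%). At 1.5-fold, 0 members were higher, against 7.24%, and 1 was lower, against 3.37%. The median log2 ratio of the members was 0.15, a 1.11-fold higher value, and that of all measured genes was 0.00. Summed FPKM of the measured members was 13617 (control) and 15416 (high phosphate), and all listed members held 4.43% and 4.45% of the FPKM of each library.

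The direction of these small differences rests on how the libraries are scaled to each other. After both were rescaled to the same sum of listed FPKM, the median of all measured genes moved from 0.00 to -0.15, and 34 members were higher and 39 lower, beside 1405 higher and 2961 lower among all measured genes. With the 100 most abundant entries left out of the sum, 43 members were higher and 30 lower, beside 1778 and 2588 among all measured genes. The distance of the members' median above that of all measured genes was 0.15 as deposited and 0.13 with equal sums. It was smaller when means were taken (0.06), among genes with at least 100 FPKM on average (0.05) and from summed FPKM (0.011). Of the members named by the rule given under processing, Sdhd, Uqcrb, Uqcrh, Cox17 and Atp5f1b, all slightly higher as deposited, were lower with equal sums. Directions below refer to FPKM as deposited, and counts after rescaling to equal sums are called rescaled. Each rescaled count stands beside the 1405 higher and 2961 lower among all measured genes at that scaling.

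**Figure D1:**
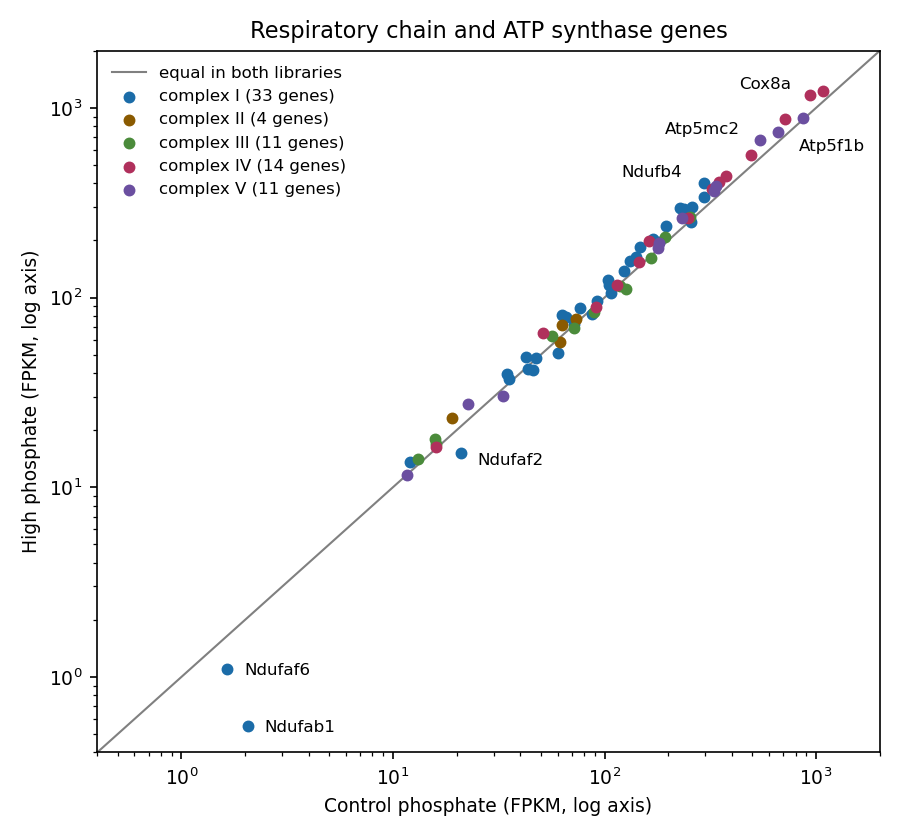
Listed FPKM of the 73 measured members in the control (horizontal, log axis) and high phosphate library (vertical, log axis), 1 point per gene, coloured by complex, with the line of equal values. Most points lie on or slightly above the line from about 10 FPKM to over 1000 FPKM, and Ndufaf2, Ndufaf6 and Ndufab1 lie furthest below it.

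The differences were most one-sided among abundant genes, members and others. From a mean of 100 FPKM upward, 35 of 40 members (87.5%) and 68.5% of 413 other measured genes were higher in high phosphate, with median log2 ratios of 0.20 and 0.14. Between 50 and 100 FPKM the medians were 0.05 for 15 members and 0.04 for 436 other genes. Between 10 and 50 FPKM they were 0.09 for 16 members and -0.03 for 1630 other genes. Below 10 FPKM, 2 members were measured, both lower, and the median of 1814 other genes was -0.0050. From 10 FPKM upward the medians of the other genes rose from band to band, while those of the members were 0.09, 0.05 and 0.20. The part of level in the members' direction was not tested.

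**Figure D2:**
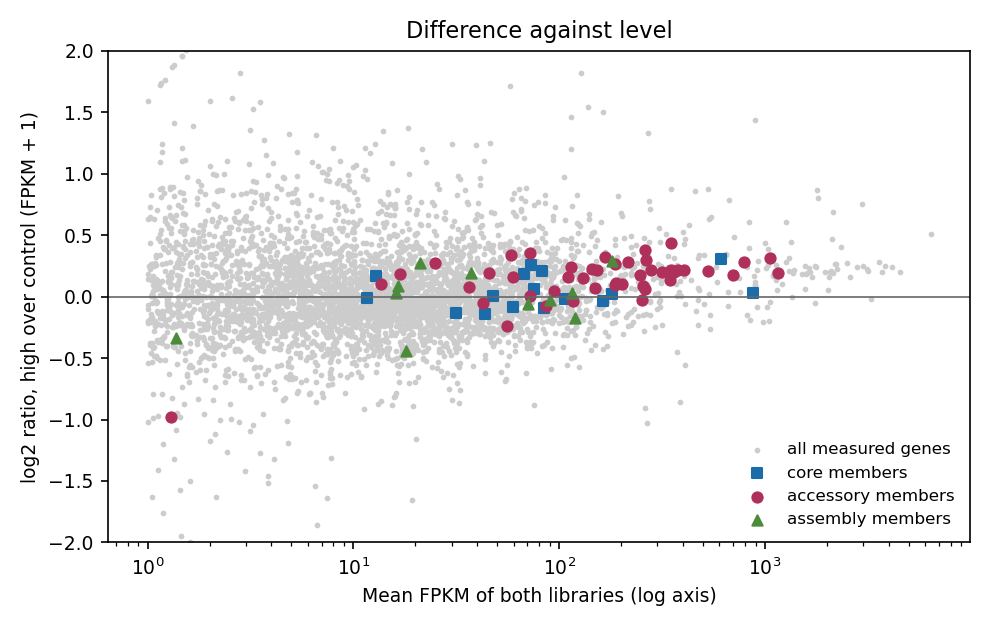
log2 ratio of high over control phosphate on the FPKM + 1 scale (vertical) against mean FPKM of both libraries (horizontal, log axis) for all 4366 measured genes (grey) and the members by class (colours), with 17 measured genes outside the drawn range. The members with the highest levels are mostly accessory subunits and lie in a narrow band above 0, where most other abundant genes also lie.

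Promoters of these genes are known to share sites for NRF1, for the ETS factor GABPA and for the ERR receptors, regulators that couple nuclear and mitochondrial gene expression. Of the 73 measured members, 65 matched a RefSeq promoter window (build GRCr8), of which the 250 bases before the start were searched on both strands. The NRF1 motif, spelled GCGC, any base, TGCGC, was found in 10 of the 65 (15.4%), against 10.4% of 3609 measured genes with a window and 5.45% of 19005 protein-coding genes. The match nearest the start and its surroundings in each of these 10 genes are shown to compare the sites, read 5′ to 3′ along the gene's strand, with the matched bases in capitals.
Ndufa11, chr9:1637513-1637542, + strand: ctgtGCGCATGCGCATGCGCacaggccatg
Ndufa12, chr7:30658194-30658223, + strand: ctccagctctGCGCGTGCGCagagcgacct
Ndufa5, chr4:53971248-53971277, - strand: cgtatgagctGCGCAGGCGCaaatctctcc
Ndufv3, chr20:9613737-9613766, + strand: cagaatgcgcGCGCAAGCGCttggccccac
Sdha, chr1:30764497-30764526, + strand: ggagcgtgttGCGCAGGCGCagagccttcc
Uqcc2, chr20:5216384-5216413, - strand: cgcgccttagtGCGCACGCGCtctctgcag
Uqcrc1, chr8:118468149-118468178, + strand: cttccttacaGCGCCTGCGCctcatactcc
Atp5mc2, chr7:135678255-135678284, - strand: ggctctagtcGCGCATGCGCagagccttct
Atp5me, chr14:1464774-1464803, + strand: ttgcgctacgGCGCATGCGCtttcctggct
Atp5po, chr11:44657523-44657552, - strand: acgccgacgcGCGCATGCGCtctggcatca
Ndufa11 and Sdha held a second match, which overlaps the first in Ndufa11 and lies further upstream, outside the stretch shown, in Sdha. The first base of the match nearest the start lay between 19 bases (Uqcc2) and 112 bases (Ndufa12) before the start. The 10 genes came from complexes I, II, III and V and were listed on both sides of 0, from a log2 ratio of -0.24 for Ndufv3 to 0.38 for Ndufa12. Their median was 0.17, and that of the 55 members without the motif was 0.11.

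The GABPA motif CCGGAAG was in 20 of the 65 windows (30.8%), against 19.3% of measured genes. The ERR motif AAGGTCA was in 6 (9.23%), against 2.19%, and the YY1 motif AAGATGG in 3 (4.62%), against 4.43%. The HIF cores ACGTG and GCGTG, the letters bound by the low-oxygen factors, were in 17 (26.2%, against 25.1%) and 28 (43.1%, against 47.3%); matches of these cores can overlap each other and the NRF1 motif. Median log2 ratios of members with and without a motif were 0.16 and 0.11 for GABPA, 0.17 and 0.11 for YY1, 0.07 and 0.15 for ERR, 0.11 and 0.12 for ACGTG and 0.09 and 0.15 for GCGTG, so members with a motif had the higher median for some motifs and the lower for others. Over all measured genes, those with the GABPA motif had a median of -0.04 and those without it 0.01. A match describes the letters only. The windows of Atp5me, which held all of the NRF1, YY1 and GABPA motifs, and of Cox8a, which held the GABPA motif at 57 and 19 bases before the start, are given whole because both genes are among the most abundant members. Matches to these motifs are in capitals.
Atp5me, chr14:1464610-1464859, + strand: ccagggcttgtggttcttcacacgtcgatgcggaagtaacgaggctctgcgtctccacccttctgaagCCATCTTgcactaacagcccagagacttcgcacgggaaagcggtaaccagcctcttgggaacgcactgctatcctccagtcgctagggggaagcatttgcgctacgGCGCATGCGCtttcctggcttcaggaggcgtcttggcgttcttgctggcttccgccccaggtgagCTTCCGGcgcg
Cox8a, chr1:213833624-213833873, - strand: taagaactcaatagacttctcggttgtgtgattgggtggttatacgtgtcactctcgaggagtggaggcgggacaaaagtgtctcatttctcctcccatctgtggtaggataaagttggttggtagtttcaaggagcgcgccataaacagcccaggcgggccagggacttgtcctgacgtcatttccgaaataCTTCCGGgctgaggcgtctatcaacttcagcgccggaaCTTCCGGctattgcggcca
Of the 65 members, 16 (24.6%) had the start of another protein-coding gene on the opposite strand within 1000 bases upstream, against 14.1% of measured genes. Cox4i1 and the membrane protein gene Emc8 start 148 bases apart, and Atp5pf starts 163 bases from Gabpa, the gene of the GABPA factor itself. Emc8 was listed at 66.0 and 55.9 FPKM, lower in high phosphate, while Cox4i1 was higher. Of the partners with values, Rps28 (log2 ratio 0.20) and Zmat5 (0.36) were higher and the rest lower, and the members beside all of them were higher.

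Complex I, the NADH dehydrogenase, had 33 measured members, 24 higher and 9 lower in high phosphate (17 and 16 rescaled), with a median log2 ratio of 0.17. The 7 measured core subunits, which carry the flavin, the iron-sulfur clusters and the quinone site, differed little, with a median of 0.01. Ndufs1, the largest of the iron-sulfur subunits, was listed at 47.5 FPKM in control and 47.8 in high phosphate, and Ndufv1, the flavin subunit, at 87.7 and 82.0 FPKM. Ndufs3 had the lowest ratio of the core subunits, with 45.9 and 41.5 FPKM. These core subunits were named after their values were seen.

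The accessory subunits, which surround the core without taking part in catalysis, had a median log2 ratio of 0.20, with 19 of 23 higher (13 rescaled). Ndufb4, a subunit of the membrane arm and the most abundant member of complex I, was listed at 297 and 402 FPKM and had the highest ratio of the members (log2 ratio 0.44). Ndufa12, an accessory subunit of the peripheral arm whose NRF1 match is shown above, was listed at 228 and 297 FPKM (0.38). The RefSeq table holds 7 pseudogenes of Ndufb4, and the sources used here do not give how reads shared with such copies were assigned. Of the accessory subunits named Ndufb, 9 of 10 were higher (6 rescaled), and of those of complex I named Ndufa 8 of 9 (6 rescaled).

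The lowest ratio of the members was that of Ndufab1, the mitochondrial acyl carrier protein that is both a complex I subunit and a carrier for fatty acid and lipoate synthesis, listed at 2.06 and 0.55 FPKM. Its log2 ratio of -0.98 was the 1 difference among members past 1.5-fold, and without the added 1 its FPKM were more than 2-fold apart. Next came the assembly factors Ndufaf2, a chaperone that holds the place of Ndufa12 during assembly, with 20.9 and 15.2 FPKM (-0.44), and Ndufaf6 with 1.65 and 1.10 FPKM (-0.34). Ndufaf2 was thus lower where Ndufa12, its paralog, was higher. Ndufab1 and Ndufaf6 were the lowest members inside the limit of 1 FPKM. Just outside it were Cox6b1 with 0.70 and 0.00 FPKM, Ndufaf1 with 0.24 and 0.00, Ndufaf7 with 0.00 and 0.18 and Cox4i2 with 0.06 and 0.00. Cox6b1, which encodes the common isoform of complex IV subunit VIb, was listed near 0 beside other subunits of the same complex at over 100 FPKM. A value near 0 in such files can be a failed estimate, so the low values of Ndufab1 and Cox6b1 are given as listed.

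Complex II, succinate dehydrogenase, is encoded wholly in the nucleus, and 4 of its genes were measured, with a median log2 ratio of 0.12 (3 of 4 higher, 2 rescaled). Sdha, the flavoprotein, was listed at 61.7 and 58.2 FPKM, and Sdhb, the iron-sulfur subunit, at 63.0 and 71.9 FPKM. The membrane anchor Sdhd was listed at 73.7 and 76.8 FPKM. The assembly factor Sdhaf4, which protects the flavinated Sdha before it joins Sdhb, was listed at 19.0 and 23.1 FPKM (log2 ratio 0.27). It was the 1 gene of complex II past 1.2-fold, against 21.4% of all measured genes at least 1.2-fold higher and 16.4% lower. The 3 catalytic and anchor subunits lay close together in level in both libraries, from 58.2 to 76.8 FPKM.

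Complex III, which passes electrons from ubiquinol to cytochrome c, had nearly equal summed FPKM as deposited, 1120.4 for control and 1128 for high phosphate, a ratio of 1.01. With equal library sums this ratio was 0.893, the furthest from 1 of the 5 complexes. Of its 11 measured members 6 were higher and 5 lower (1 and 10 rescaled), and the median log2 ratio was 0.06. At 1.2-fold, 0 were higher and 0 lower, against 21.4% and 16.4% of all measured genes. The Rieske iron-sulfur protein Uqcrfs1 was listed at 166 and 162 FPKM. The core-protein genes Uqcrc1 (89.0 and 84.2 FPKM) and Uqcrc2 (118 and 115 FPKM), which support the dimer without carrying electrons, were slightly lower. The small subunits Uqcrb, with 56.3 and 63.0 FPKM, and Uqcr11, with 15.8 and 18.0 FPKM, had the highest ratios. Uqcrh, the hinge protein for cytochrome c1, was the most abundant with 255 and 266 FPKM. The assembly factor Uqcc2, needed for cytochrome b, was lowest with 126 and 111 FPKM (log2 ratio -0.18). Cytochrome c1 itself, Cyc1, whose symbol is outside the naming rule, was also lower, with 200 and 173 FPKM (-0.21).

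Complex IV, cytochrome c oxidase, had the highest median of the 5 as deposited, with a log2 ratio of 0.21, and 13 of its 14 measured members were higher (9 rescaled). Ndufa4, named for complex I but a subunit of complex IV, was counted here. All 10 measured subunits were higher as deposited (8 rescaled), from 0.07 for Ndufa4 (146 and 153 FPKM) to 0.34 for Cox7b2 (51.4 and 65.2 FPKM), and their summed FPKM was 4712 and 5529. Rescaled to the same sum, the median of the complex was 0.04. Among members with at least 100 FPKM on average, complexes I and IV were level, with medians of 0.22 each. Cox6a1, the most abundant of the measured members, was listed at 1076 and 1229.6 FPKM, and Cox8a at 939 and 1168 FPKM (0.31). The assembly factors Cox14 and Cox17, the latter a copper chaperone, had 91.6 and 89.6 FPKM and 115 and 117 FPKM. Cox7a2l, which helps join complexes III and IV into supercomplexes, was listed at 163 and 199 FPKM (0.29).

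Complex IV subunits exist as isoforms that differ between tissues and oxygen levels. Of the regulatory subunit 4, the common isoform Cox4i1 was listed at 349 and 406 FPKM (log2 ratio 0.22). Cox4i2, the isoform known to be induced in low oxygen in some cells, was listed at 0.06 and 0.00 FPKM. Cox7b2, a paralog of Cox7b known mainly from testis, held 13.8% of the pair's FPKM in the control and 14.8% in high phosphate, with Cox7b at 322 and 374 FPKM; this pair was set side by side after its values were seen. The assignment of reads shared by the paralogs is not stated.

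Complex V, the ATP synthase, had 11 measured members, 9 higher and 2 lower (5 and 6 rescaled), with a median log2 ratio of 0.14. The catalytic F1 subunits were nearly level between the libraries: Atp5f1b, the beta subunit and the most abundant member of the complex, was listed at 869 and 887 FPKM, and Atp5f1a, the alpha subunit, at 180 and 183 FPKM. All 6 measured accessory members were higher (4 rescaled), with a median of 0.17. Atp5pf, coupling factor 6 of the peripheral stalk, had the highest ratio of these with 22.6 and 27.5 FPKM (0.28). Atp5if1, the inhibitor that stops the enzyme from running backwards, was lowest of them with 181 and 194 FPKM (0.10).

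The c ring is built from one small protein that 3 genes encode with different import sequences. Atp5mc2 was listed at 546 FPKM in control and 675 in high phosphate (log2 ratio 0.31). Atp5mc3 was listed at 33.1 and 30.2 FPKM (-0.13), and Atp5mc1 at 11.65 and 11.56 FPKM (-0.01). Atp5mc2 made up 92.4% (control) and 94.2% (high phosphate) of the summed FPKM of the family. It was the only one of the 3 that held the NRF1 motif in its window. The RefSeq table holds 4 pseudogenes of Atp5mc2.

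**Figure D3:**
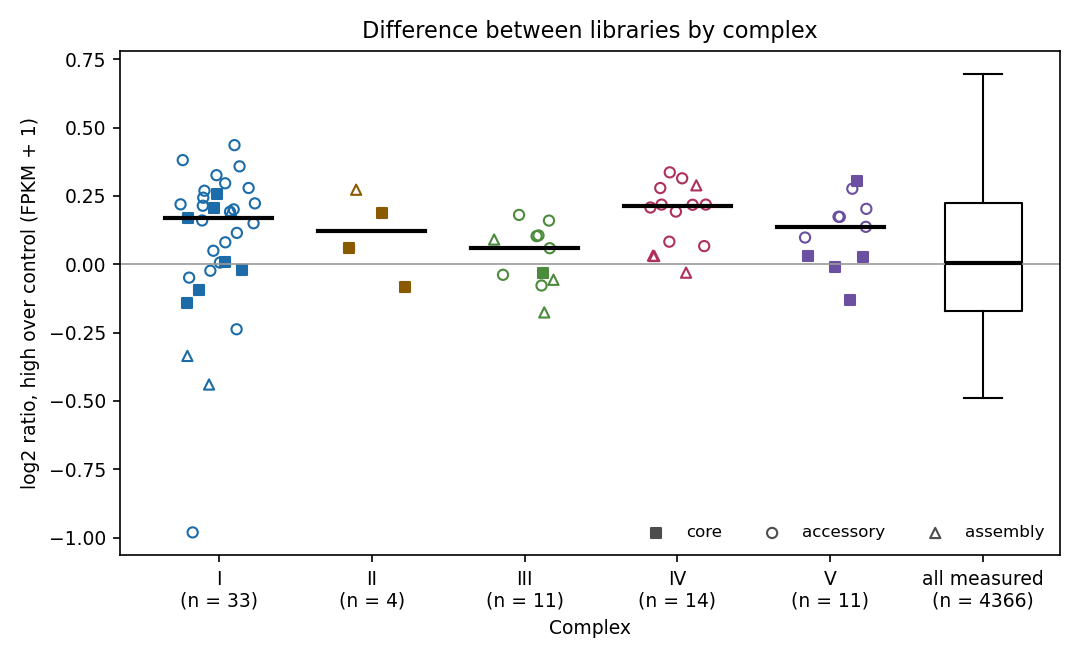
log2 ratio of high over control phosphate on the FPKM + 1 scale for each measured member, by complex, with core subunits as filled squares, accessory subunits as circles, assembly factors as triangles and the median as a black bar. The box spans the 25th to the 75th percentile of all 4366 measured genes, with whiskers from the 5th to the 95th percentile; the members lie within them apart from Ndufab1, and the median of complex IV (0.21) is highest at this scale.

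Across the complexes, accessory subunits had a higher median ratio than core subunits. The 46 measured accessory members had a median log2 ratio of 0.19, with 40 higher in high phosphate (26 rescaled) and 11 at least 1.2-fold higher (23.9%, against 21.4% of all measured genes). The 16 core members are those that carry cofactors, anchor complex II or form the F1 head and c ring of complex V. Their median was 0.02, with 9 higher (5 rescaled) and 1 at least 1.2-fold higher (6.25%). At least 1.2-fold lower were 1 accessory member (2.17%) and 0 core members, against 16.4% of all measured genes. The catalytic subunits of complex IV are encoded by mitochondrial DNA, so it has no core member here. The order was the same within complex I (0.20 for accessory and 0.01 for core members), complex III (0.10, and -0.03 for Uqcrfs1 alone) and complex V (0.17 and 0.03). From a mean of 100 FPKM upward, 30 of 32 accessory members were higher, with a median of 0.20, and 3 of 5 core members, with a median of 0.03. The values overlap: core members ran from -0.14 to 0.31 and accessory members from -0.98 to 0.44. The difference of the medians, 0.17 both as deposited and rescaled, had no test, and it was 0.10 when means were taken. Accessory members were also more abundant, with a median of 187 FPKM against 74.0 FPKM for core members, and the part of level or transcript length in the difference was not tested.

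The 11 measured assembly factors had a median log2 ratio of 0.03, with 6 higher and 5 lower (3 and 8 rescaled), with 2 at least 1.2-fold higher (Sdhaf4 and Cox7a2l) and 2 at least 1.2-fold lower (Ndufaf2 and Ndufaf6), each 18.2%, against 21.4% and 16.4% of all measured genes. Of 35 assembly genes with other names, 18 were measured, with a median of 0.09, 10 higher and 8 lower. The largest difference among them was that of Higd1a, a small protein of the inner membrane that binds complex IV and is induced in low oxygen, listed at 26.3 and 88.5 FPKM. The others ran from -0.36 for Bcs1l, which inserts the Rieske protein into complex III (16.2 and 12.4 FPKM), to 0.51 for Timmdc1, a complex I assembly factor (16.3 and 23.7 FPKM). Of regulators, 5 of 12 were measured: Tfb2m, which starts mitochondrial transcription, with 9.0 and 6.32 FPKM, Tfam with 34.2 and 30.5 FPKM, Tfb1m with 9.62 and 8.90 FPKM, Esrra with 23.8 and 26.0 FPKM and Nrf1 with 1.45 and 1.79 FPKM. These 5 and Bcs1l and Timmdc1 were named after their values were seen.

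Mitochondrial ribosomal protein genes and genes of the tricarboxylic acid cycle had medians below 0. Of 55 measured mitochondrial ribosomal protein genes, which translate the subunits encoded by mitochondrial DNA, 41 were lower (51 rescaled), with a median log2 ratio of -0.14. Mrps12 was lowest with 20.7 and 11.6 FPKM. Of 10 measured genes of the tricarboxylic acid cycle and pyruvate dehydrogenase, 7 were lower (9 rescaled), with a median of -0.13. Beside both lists, 2156 of all 4366 measured genes were lower as deposited and 2961 rescaled. Isocitrate dehydrogenase Idh2 was listed at 157 and 248 FPKM. The mean of these 10 log2 ratios was -0.02, and the log2 ratio of their summed FPKM was 0.09. From a mean of 100 FPKM upward these lists held only 4 genes (3 higher, 1 lower) and 2 genes (1 higher, 1 lower). A list of glycolytic genes with the glucose transporter Slc2a1 and the pyruvate dehydrogenase kinase Pdk1, by contrast, had a median of 1.10. Of its 10 measured genes, 8 were at least 1.5-fold higher, against 7.24% of all measured genes. Among the 8 were Pdk1, Aldoc, Aldoa and Gapdh. The filter on low values left out Tpi1 (0.29 and 0.00 FPKM), Eno1 (0.75 and 0.90) and Eno3 (0.00 and 0.25). Without the filter the median of the glycolysis list was 0.80. Cytosolic ribosomal protein genes, added after the data were seen as another set of abundant genes, had a median of 0.20, close to the 0.19 of the accessory subunits. These lists share both libraries with the members, so their values are set side by side without a test.

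**Figure D4:**
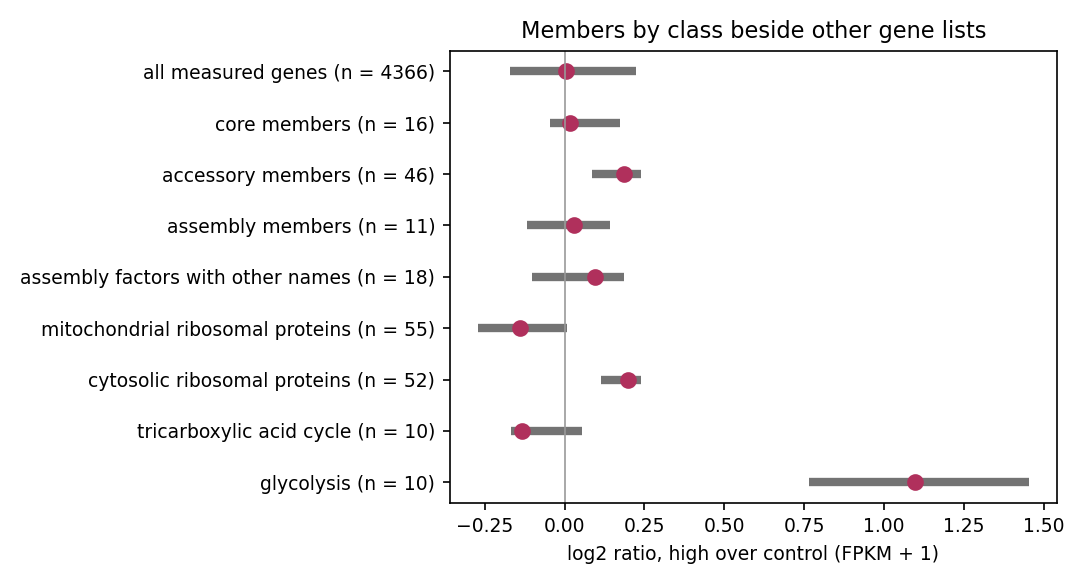
Median log2 ratio of high over control phosphate on the FPKM + 1 scale (points) and the range from the 25th to the 75th percentile of genes (bars) for the members by class, other gene lists and all measured genes. Core subunits and assembly factors lie near 0, and accessory subunits and cytosolic ribosomal proteins near 0.2. Mitochondrial ribosomal proteins and tricarboxylic acid cycle genes lie below 0, and the glycolysis list, with Slc2a1 and Pdk1, far to the right.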

How the data were processed

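RNA-seq libraries of H9c2 cells at 0.9 mM and 2.5 mM phosphate, 1 each, were used. The authors deposited FPKM, per the file headers, to 2 decimals. The build Rnor_6.0 and the tools Cufflinks 2.2.1, Cuffdiff, TopHat2 2.1.1 and bcl2fastq come from the submitters' processing notes. The sources used here do not give annotation, strand, multiple mapping or scaling between libraries. Of 8039 entries per file, 236 without a usable identifier (8.20% of control and 8.56% of high phosphate FPKM) were left out. Of the other 7803, 7746 matched a symbol in the RefSeq table for GRCr8, which was used for names and promoter sequences and not for positions of the measured features. No counts could be recovered from FPKM rounded to 0.01, so depth and counting error are unknown.

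The log2 ratio used a pseudocount of 1, which understates differences of low values, and genes averaging 1 FPKM or more. Fold thresholds were 2, 1.5 and 1.2. Classes (core, accessory, assembly) and other lists were written by hand. Members named by rule are, in each complex, the 2 highest and 2 lowest ratios and the most abundant gene. The rule also takes isoform families with more than 1 listed gene and, of other lists, genes at least 1.5-fold apart, at most 4 a list. Further genes, such as Uqcrfs1, Uqcrc2, Atp5f1a, Atp5if1 and Cox7a2l, were named outside this rule. The members and lists were chosen with earlier results of these data known. Alternatives changed the pseudocount, scaling, filter, classes and averaging. Calculations were tested on simulated data and used Python 3.11.15, numpy 2.4.6, pandas 2.3.3 and matplotlib 3.10.9.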

Additional observations from a re-analysis of the deposited data

How the results depend on the processing

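No paired analysis was possible because each phosphate level had 1 library, and for the same reason no library could be left out. A median counted as moved from a shift of 0.1 in log2 units and a count from a change of over 1.5 times. Rescaling to the same sum of listed FPKM moved most values: the median log2 ratio was -0.022 for all members, 0.0067 for complex I, -0.048 for complex II, -0.11 for complex III, 0.040 for complex IV, -0.036 for complex V, -0.15 for core, 0.018 for accessory and -0.14 for assembly members, with 0 members at least 1.2-fold higher, 8 at least 1.2-fold lower and 1 at least 2-fold lower. Without the 100 most abundant entries in the sum, these counts were 3, 5 and 1, and at the same upper quartile 9 members were at least 1.2-fold higher. The median of all measured genes shifted as well, to -0.15 with equal sums. It was -0.073 without the 100 most abundant entries in the sum and -0.018 at the same upper quartile. Shares of all measured genes at these fold steps were not computed after rescaling. With a pseudocount of 0.1 or 0.5, 1 member, Ndufab1, was at least 2-fold lower. The 3 members at least 1.2-fold lower became 5 without a filter on low values, 1 at a mean of at least 5 or 10 FPKM, 1 without assembly factors and 0 at a mean of at least 100 FPKM, an alternative added after the data were seen. The members' median minus that of all measured genes was 0.15, 0.06 with means, 0.05 from 100 FPKM upward and 0.011 as the log2 ratio of summed FPKM. Of 204 recomputed values of the 34 genes named by rule, 41 moved by 0.1 or more. With equal sums 5 of the 34 changed sign (Sdhd, Uqcrb, Uqcrh, Cox17 and Atp5f1b), and without the 100 most abundant entries in the sum 4 of these, all but Uqcrb.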
